A study of Mus musculus with 6 samples.

Results

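Protein tyrosine phosphatases and dual specificity phosphatases were described in mouse CD4+CD25+ T cell samples labelled as Hdac3 deleted and as wild type. The 51 genes were taken by symbol: the non-receptor tyrosine phosphatases named Ptpn with a number, the receptor-type phosphatases named Ptpr with a letter, and the dual specificity phosphatases named Dusp with a number. Where a gene had several probe sets, the one whose mean over the 6 samples was highest stood for it, and the 51 genes stood among 12393 measured in all. They comprised 18 receptor-type, 15 non-receptor and 18 dual specificity genes. Of the phosphatases of these names, Ptprh, Ptprq, Ptprt, Ptpn3, Ptpn7, Dusp4, Dusp5, Dusp21, Dusp23, Dusp27 and Dusp28 were not analysed here.

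The Hdac3 deleted group held 3 samples of CD4+CD25+ cells from C57BL6 mice labelled HDAC3-fl/fl_FOXP3cre, in which Hdac3 is floxed and Cre carries the name of Foxp3, and the wild type group held 3 samples of the same surface phenotype and strain, for which the labels name no transgene. CD4 and CD25 enrich for regulatory T cells, the lymphocytes defined by the factor Foxp3 that restrain other immune cells, and a Cre driven by Foxp3 would delete the gene in Foxp3-expressing cells. Activated conventional T cells carry the same surface proteins. The labels do not say whether different animals gave the 3 samples of a group, and p-values therefore rest on a spread that may be technical. For the Hdac3 deleted group a further label names another deacetylase, Hdac11.

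Each sample was hybridised to 1 Affymetrix Mouse430a array, and values are the authors' log2 RMA expression per probe set. Differences are given on that log2 scale as Hdac3 deleted minus wild type. A gene is said to have risen or fallen where limma's Benjamini-Hochberg adjusted p over all genes lay below 0.05 and the groups differed at least 2-fold. Probe sets for bacterial genes spanned 2.37 to 5.16, and a group mean inside that range is treated as background, so that a fold against it is given as at least the distance from the top of the range. Levels of different probe sets are not set against each other, because each probe set has its own response.

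Hdac3 itself measured 8.46, 8.51 and 8.50 in Hdac3 deleted samples, against 9.07, 9.04 and 9.01 in wild type, a difference of -0.55 (adjusted p = 7.45e-05) with no overlap. It was 1.47-fold lower and well above the background range in both groups. Hdac11, named by the conflicting label, averaged 4.89 in Hdac3 deleted and 5.47 in wild type samples, a difference of -0.58 (adjusted p = 0.000864, at least 1.24-fold lower). Neither deacetylase reached 2-fold, and the array values do not settle which of the labels holds. The labels do not place the Hdac3 probe set inside or outside the floxed exons, which limits what its value can check. Foxp3 averaged 3.68 in Hdac3 deleted and 3.77 in wild type samples, inside the background range, so the defining gene of the labelled cell type could not be read. Of the 9 regulatory T cell markers Izumo1r, Gpr83 and Ikzf2 fell, by 2.03, 1.90 and 1.58, and 6 were lower and 1 higher past adjusted p, the higher one being Il2ra, the gene of CD25, at 0.71. Ctla4 was at 11.27 in Hdac3 deleted and 11.20 in wild type samples, with overlap. Markers of other cells moved with the genotype: all 15 macrophage markers measured rose, with a median of 7.04, and 10 of 11 neutrophil markers rose. Summed over the list, macrophage markers came to 179.6 to 180.1 log2 units in Hdac3 deleted samples and to 79.1 to 80.1 in wild type, where 7 of them, C1qb, Adgre1, Msr1, Aif1, Clec7a, Fcgr1 and Cd14, lay in the background range. Neutrophil markers came to 116.7 to 116.9 in Hdac3 deleted samples and to 53.4 to 57.8 in wild type, with 6 in the background range there, S100a8, S100a9 and Mpo among them. Of 10 T cell markers 9 fell, and the 4 CD3 genes fell by 1.21 to 1.59; the T cell list summed to 103.7 to 103.9 in Hdac3 deleted samples and to 116.8 to 117.3 in wild type. All 5 cell cycle markers rose, with a median of 2.07, and of 6 B cell markers Cd22 and Cd79b rose while Ms4a1, Pax5 and Blk lay in the background range in both groups and Cd79a differed by -0.26 (adjusted p = 0.0716) with overlap. Of 5 natural killer cell markers 3 rose: Tyrobp, which myeloid cells share, at least 206-fold, Nkg7 by 1.65 and Klrk1 at least 1.41-fold. Klrd1 was higher past adjusted p (at least 1.87-fold), and Ncr1 lay in the background range in both groups. Of 6 dendritic cell markers Itgax (by 4.29) and Batf3 (at least 36.7-fold) rose, and Ccl22 and Flt3 were higher past adjusted p, by 0.84 and 0.38. Zbtb46 and Xcr1 lay in the background range in both groups. Of 4 erythroid and platelet markers 2 rose, Pf4 at least 2.78-fold and Ppbp with both groups in the background range. In RNA of whole samples, fewer cells of a type and less RNA per cell cannot be told apart, and the part of these markers in the results below was not tested.

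Tyrosine phosphatases remove phosphate from tyrosines that kinases such as Lck or the Janus kinases have modified. Active members use a cysteine in a conserved signature loop. Many receptor-type members carry adhesion domains outside the cell, and many non-receptor members carry docking domains such as SH2. Many dual specificity members are MAP kinase phosphatases. These switch off ERK, JNK or p38 by removing phosphate from both the threonine and the tyrosine of the activation loop. In T cells, CD45 (Ptprc) keeps Lck ready for signalling, while Ptpn22, Ptpn6 and Ptpn2 limit antigen receptor or cytokine signals.

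Most phosphatase genes moved little, and a few moved a great deal. Of the 51 members 5 rose, namely Ptprm, Ptprj, Dusp3, Ptpro and Ptpn1, which is 9.8% against 9.04% of all genes, and 4 fell, namely Dusp10, Ptpn18, Ptpn5 and Dusp11, which is 7.84% against 4.46% of all genes. Neither share was tested, and the share that rose lay near that of all genes. Without a fold threshold, 12 members were higher past adjusted p 0.05 (23.5%, against 22.4% of all genes) and 21 lower (41.2%, against 38.8%). The 21 include 5 with both groups in the background range, Ptpn4, Ptprd, Ptprn2, Dusp8 and Dusp26, whose direction is not readable. The 3 values of each group did not overlap in 34 members (66.7%, against 67.4% of all genes). The members' median difference was -0.19 beside -0.17 over all genes. Median centring put the median over all genes at -0.33 and cyclic loess put it at 0.00, so differences of about this size have no settled direction. Of the members past adjusted p, 36.4% were higher, a share that median centring put at 25% and cyclic loess at 51.7%. Of those that rose or fell, 5 of 9 rose; there were 4 that rose and 6 that fell with median centring, and 7 that rose and 1 that fell with cyclic loess. Both groups lay in the background range in 15 members, 4 lay there in Hdac3 deleted samples alone (Ptpn5, Dusp14, Dusp9 and Ptprf) and 2 in wild type alone (Ptprm and Ptpro), leaving 30 above it in both.

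**Figure D1:**
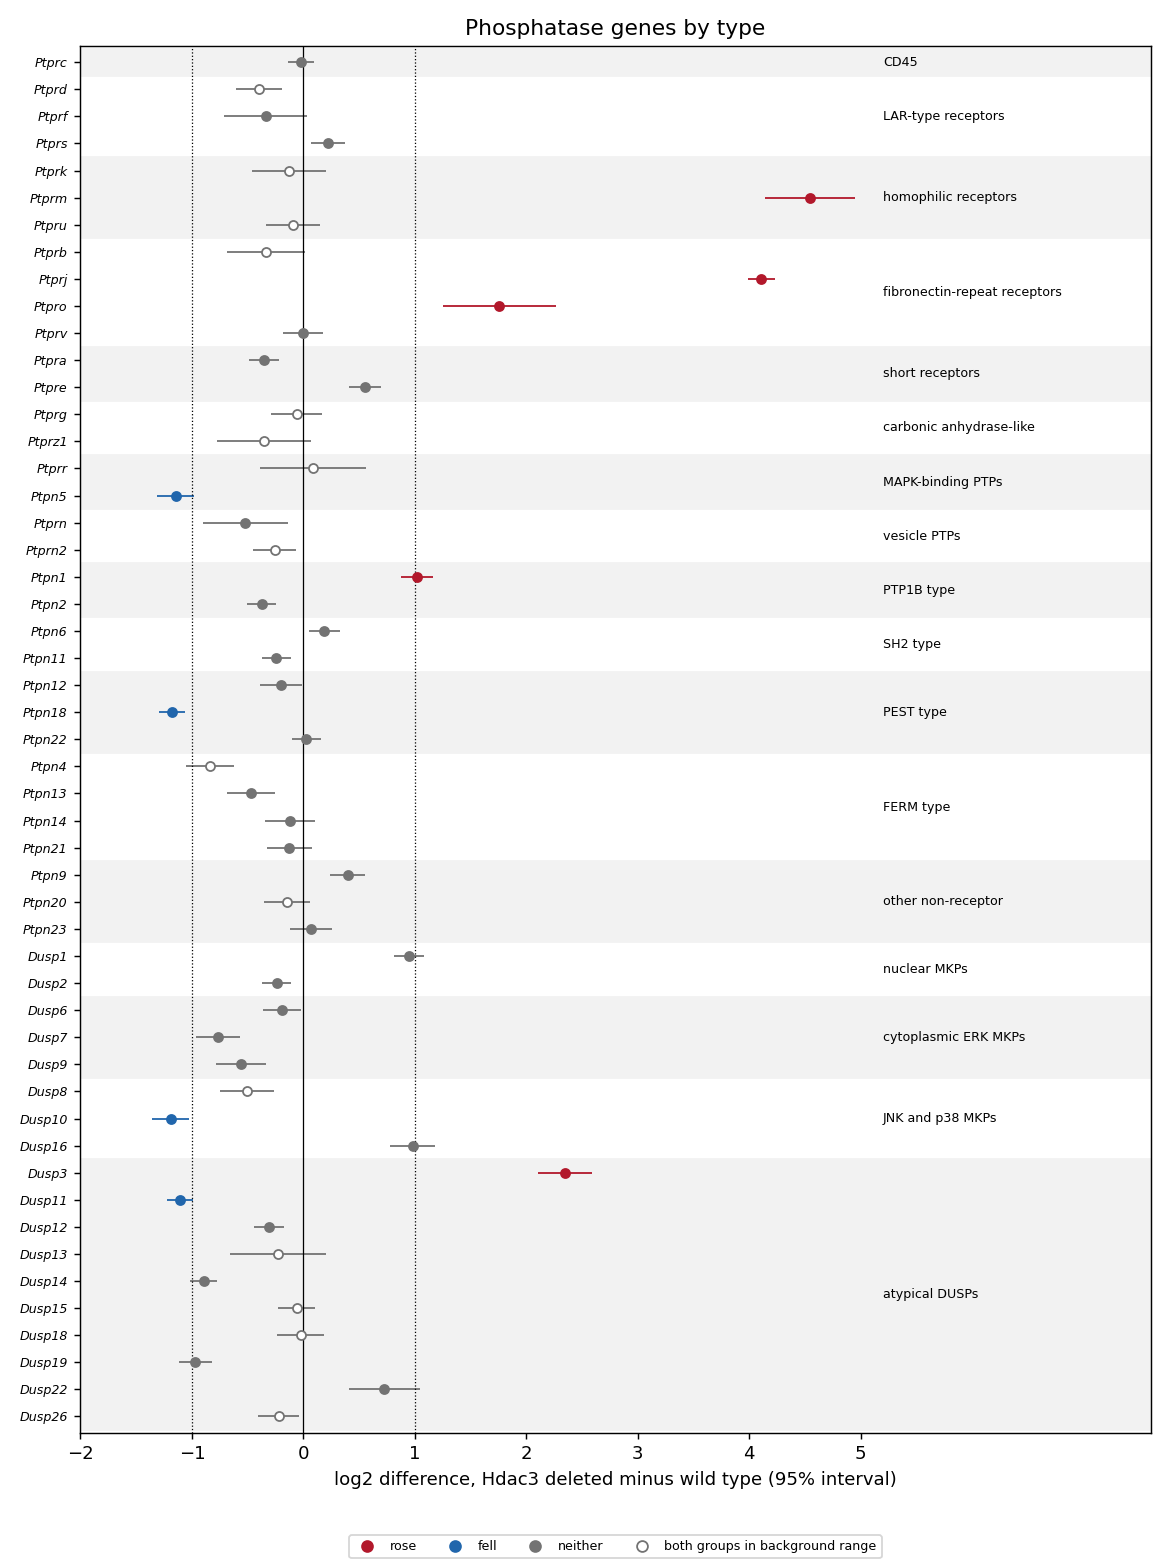
Difference in log2 RMA expression (Hdac3 deleted minus wild type, 3 samples each) for each of the 51 phosphatase genes, grouped by type, with the 95% interval from limma. Dotted lines mark a 2-fold difference and open points have both groups in the background range. Ptprm and Ptprj stand at 4.55 and 4.11, while most members lie within 1 log2 unit of 0.

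Among receptor-type genes 3 of 18 rose (16.7%, against 9.04% of all genes) and none fell (against 4.46%). Past limma's adjusted p alone 5 were higher (27.8%, against 22.4%) and 4 lower (22.2%, against 38.8%). In both groups 8 lay in the background range, Ptprd and Ptprn2 of the lower ones among them. Ptprm encodes a receptor whose extracellular part binds the same protein on a neighbouring cell. Ptprm measured 9.33, 9.46 and 8.85 in Hdac3 deleted samples, against 4.74, 4.46 and 4.79 in wild type. The groups lay far apart, with wild type wholly in the background range, so Ptprm was at least 16.6-fold higher (difference 4.55, SE 0.17, adjusted p = 9.04e-07). Its relatives of the same homophilic type, Ptprk and Ptpru, lay in the background range in both groups and overlapped.

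Ptprj encodes CD148, a receptor of haematopoietic cells that acts on Src family kinases. Its values were 9.52, 9.46 and 9.48 in Hdac3 deleted samples and 5.34, 5.39 and 5.41 in wild type. All 3 wild type samples sat just above the background range and the Hdac3 deleted samples were 17.3-fold higher (difference 4.11, SE 0.05, adjusted p = 9.22e-09). Each of the other 3 Ptprj probe sets was also higher, though by less: 1 was at least 2.3-fold higher (6.36 and 5.12) and the others lay in the background range in both groups. Averaged over its 4 probe sets, Ptprj differed by 1.81, so the size of its rise depends on the probe set.

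Ptpro, a relative of Ptprj known from kidney podocytes and from macrophages, gave 5.81, 5.88 and 6.15 in Hdac3 deleted samples, against 4.69, 3.90 and 3.98 in wild type. Its groups did not overlap (difference 1.76, SE 0.21, adjusted p = 0.000317), but wild type was in the background range and the bound was only 1.74-fold. A second Ptpro probe set, in the background range in both groups, differed by 0.28, and the average of both sets by 1.02. The third receptor with fibronectin repeats above background, Ptprv, was level, at 7.17 in both groups, and Ptprb lay in the background range.

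In the same samples Ptprc, the pan-leukocyte receptor CD45, measured 13.42, 13.39 and 13.44 in Hdac3 deleted samples and 13.44, 13.45 and 13.44 in wild type. The groups met within the printed digits. The Ptprc difference was -0.02 with a 95% interval of -0.14 to 0.09 (adjusted p = 0.681), and it was 0.14 with a second quantile normalization (adjusted p = 0.0383) and 0.21 with cyclic loess (adjusted p = 0.00858). The short receptors moved apart. Ptpre, which is known from macrophages and bone, measured 9.01, 9.16 and 9.03 in Hdac3 deleted samples, against 8.51, 8.51 and 8.53 in wild type, a difference of 0.55 (adjusted p = 0.000188). Ptpra, an activator of Src kinases, measured 8.69, 8.63 and 8.72 in Hdac3 deleted samples, against 8.97, 9.07 and 9.06 in wild type, a difference of -0.35 (adjusted p = 0.00148). Both were past the adjusted p and neither reached 2-fold.

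Ptprs, a receptor for proteoglycans, was 8.78 ± 0.011 in Hdac3 deleted and 8.55 ± 0.099 in wild type samples (SD, n = 3 each), differing by 0.22 (adjusted p = 0.0216). That call was lost with median centring (0.06, adjusted p = 0.402) and rested on every sample but wild type replicate 2, the adjusted p being 0.00845 to 0.0617 as each was left out. Its relatives Ptprd and Ptprf lay at or near background. Ptprn, a secretory vesicle protein without tyrosine phosphatase activity, differed by -0.52 (adjusted p = 0.026; 0.0131 to 0.075 as each sample was left out, and 0.0846 with cyclic loess), and Ptprn2, Ptprg, Ptprz1 and Ptprr lay in the background range in both groups.

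**Figure D2:**
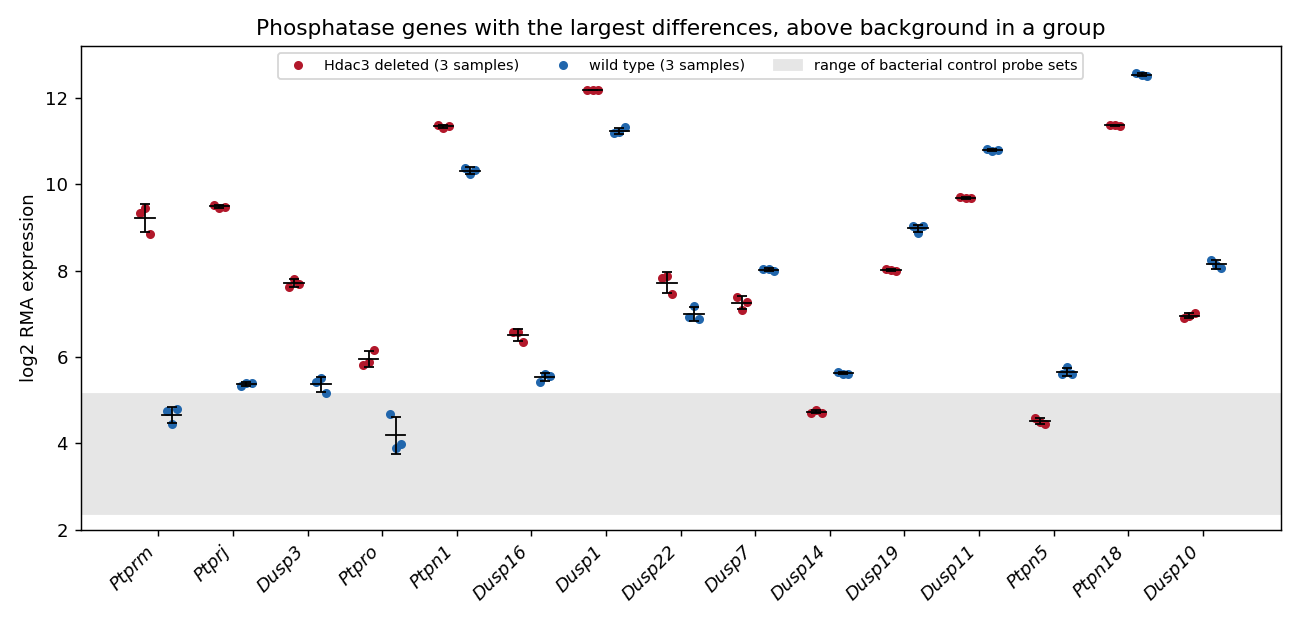
Log2 RMA expression in each Hdac3 deleted (red, left) and wild type (blue, right) sample for the 15 phosphatase genes that differed most among those above background in a group; bars are mean ± SD of 3 samples and the grey band is the range of bacterial control probe sets. These genes were picked for their differences, so their separation is a description; wild type Ptprm and Ptpro and Hdac3 deleted Ptpn5 and Dusp14 lie in the band.

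Of 15 non-receptor genes 1 rose (6.67%, against 9.04% of all genes) and 2 fell (13.3%, against 4.46%). Ptpn1 encodes PTP1B, which acts on the insulin receptor and on Janus kinases. It gave 11.37, 11.29 and 11.35 in Hdac3 deleted samples, against 10.39, 10.25 and 10.32 in wild type, and its difference of 1.02 (SE 0.06, adjusted p = 7.96e-06) lay at the 2-fold line. A second Ptpn1 probe set differed by 1.05. The Ptpn1 difference was 0.86 with median centring and 0.98 without wild type replicate 2, under 2-fold in both cases. Ptpn2, its closest relative and an inhibitor of T cell receptor and interleukin-2 signals, went the other way by less, at 10.27, 10.38 and 10.31 in Hdac3 deleted samples and 10.70, 10.66 and 10.70 in wild type (difference -0.37, adjusted p = 0.000909).

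Ptpn18 belongs to the PEST type, whose members bind the kinase Csk or the adaptor Pstpip1. Its values were 11.36, 11.37 and 11.34 in Hdac3 deleted samples and 12.57, 12.54 and 12.51 in wild type. The groups were well separated and Ptpn18 fell by 1.18 (SE 0.05, adjusted p = 1.65e-06), with -0.96 under cyclic loess, just short of 2-fold. Its fall lay beside a fall of 1.21 to 1.59 in the CD3 genes. The related Ptpn22, an inhibitor of T cell receptor kinases, measured 10.80, 10.75 and 10.72 in Hdac3 deleted samples and 10.69, 10.74 and 10.77 in wild type. Those values overlapped, and the 95% interval of the difference ran from -0.10 to 0.15 (adjusted p = 0.699), although it was 0.24 with cyclic loess (adjusted p = 0.00659). Ptpn12, the third of the type, differed by -0.20 (adjusted p = 0.0637) with overlapping groups. Its other 3 probe sets were lower without overlap, by -0.33 (adjusted p = 0.0129), -0.15 (adjusted p = 0.0921) and -0.15 (adjusted p = 0.163).

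The SH2 phosphatases lay close between groups. Ptpn6 (SHP-1), which docks on inhibitory receptors, measured 10.65, 10.71 and 10.65 in Hdac3 deleted samples and 10.45, 10.43 and 10.57 in wild type, a difference of 0.19 (adjusted p = 0.0297). Ptpn11 (SHP-2), which also promotes ERK signalling, measured 8.99, 8.90 and 8.98 in Hdac3 deleted samples and 9.24, 9.16 and 9.19 in wild type, a difference of -0.24 (adjusted p = 0.00774). A second Ptpn11 probe set above background differed by 0.06 with overlap (adjusted p = 0.459). The second Ptpn6 probe set, also above background, differed by 0.11 with overlap (adjusted p = 0.236). With median centring Ptpn6 differed by 0.03 (adjusted p = 0.651), and with cyclic loess Ptpn11 differed by -0.05 (adjusted p = 0.541), so each lost its call under a scaling. The Ptpn6 call also held only without wild type replicate 3 when single samples were left out (adjusted p 0.0178 to 0.0876).

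Ptpn5, known as the neuronal phosphatase STEP, gave 4.59, 4.51 and 4.45 in Hdac3 deleted samples, against 5.60, 5.76 and 5.62 in wild type. Its difference was -1.15 (adjusted p = 9.53e-06), but the Hdac3 deleted values were in the background range and it was at least 1.42-fold lower. Both other Ptpn5 probe sets lay in the background range in both groups. Ptpn5 missed 2-fold with cyclic loess (-0.96) and with its probe sets averaged (-0.60). Ptpn9, which has a lipid-binding domain, differed by 0.40 (adjusted p = 0.00187) and Ptpn13, a large scaffold phosphatase, by -0.47 (adjusted p = 0.00347). Ptpn14, Ptpn21 and Ptpn23 had overlapping groups, with differences of -0.12, -0.13 and 0.07, while Ptpn4 and Ptpn20 lay in the background range.

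Of 18 dual specificity genes 1 rose (5.56%, against 9.04% of all genes) and 2 fell (11.1%, against 4.46%). Past adjusted p alone 4 were higher (22.2%, against 22.4%) and 11 lower (61.1%, against 38.8%). Of the lower ones Dusp8 and Dusp26 lay in the background range in both groups. Dusp3 encodes VHR, a small phosphatase that acts on ERK and JNK. It measured 7.63, 7.81 and 7.69 in Hdac3 deleted samples, against 5.42, 5.52 and 5.16 in wild type, and so was 5.08-fold higher with no overlap (difference 2.34, SE 0.10, adjusted p = 1.86e-06). Wild type sat at or just above the top of the background range. A second Dusp3 probe set lay in that range in both groups, and the average of both sets differed by 1.33.

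Dusp10 encodes MKP5, which acts on JNK and p38 and limits T cell cytokines. Its values were 6.90, 6.95 and 7.01 in Hdac3 deleted samples and 8.25, 8.13 and 8.05 in wild type, a fall of 1.19 with well separated groups (SE 0.07, adjusted p = 8.52e-06). It was the only member that fell under cyclic loess as well, and a second probe set differed by -0.95, at least 1.8-fold lower. Dusp16 encodes MKP7, another JNK and p38 phosphatase, and moved the opposite way, at 6.59, 6.58 and 6.35 in Hdac3 deleted samples and 5.43, 5.60 and 5.56 in wild type. Its difference of 0.98 (adjusted p = 6.08e-05) was just under 2-fold. It passed 2-fold without Hdac3 deleted replicate 3 (1.06), without wild type replicate 2 (1.02) and with cyclic loess (1.16). Dusp8, the other member of that type, lay in the background range.

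Of the nuclear MAP kinase phosphatases, Dusp1 was higher and Dusp2 slightly lower, the latter not past adjusted p with cyclic loess. Dusp1 (MKP1), an immediate early gene whose product acts on p38, JNK and ERK, was at 12.19, 12.18 and 12.18 in Hdac3 deleted samples and 11.19, 11.20 and 11.31 in wild type. It was higher by 0.95 without overlap (SE 0.06, adjusted p = 9.05e-06), and by 1.17 with cyclic loess. Dusp2 (PAC1), an activation gene of lymphocytes, was at 11.11, 11.10 and 11.19 in Hdac3 deleted samples and 11.35, 11.42 and 11.36 in wild type, a difference of -0.24 (adjusted p = 0.00841) that was -0.02 with cyclic loess (adjusted p = 0.764).

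All 3 cytoplasmic ERK phosphatases were lower past adjusted p (100%, against 38.8% of all genes). Dusp6 was so only at its edge, and Dusp9 with Hdac3 deleted samples in the background range. Dusp7 gave 7.40, 7.10 and 7.27 in Hdac3 deleted samples, against 8.04, 8.04 and 7.99 in wild type (difference -0.77, adjusted p = 0.000177), and its other 2 probe sets differed by -0.81 and -0.37. Dusp6 (MKP3), which is induced by ERK and feeds back on it, measured 8.94, 8.95 and 8.87 in Hdac3 deleted samples and 9.05, 9.05 and 9.24 in wild type (difference -0.19, adjusted p = 0.0497). That call was at the threshold and was lost with cyclic loess (adjusted p = 0.966) and when any of the 6 samples was left out (0.0523 to 0.133). Dusp9 lay at or near background, with a difference of -0.56 (adjusted p = 0.00185). Its other 2 probe sets, in the background range in both groups, differed by -0.18 and 0.11.

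Among atypical dual specificity genes, Dusp11 encodes a phosphatase that acts on the 5′ end of RNA. It fell by 1.11, to 9.71, 9.68 and 9.67 in Hdac3 deleted samples, against 10.82, 10.78 and 10.78 in wild type (SE 0.05, adjusted p = 2.17e-06). A second Dusp11 probe set differed by -0.51, and Dusp11 missed 2-fold with cyclic loess (-0.90) and with its probe sets averaged (-0.81). Dusp19, which binds the JNK pathway, measured 8.03, 8.02 and 7.99 in Hdac3 deleted samples and 9.04, 8.88 and 9.02 in wild type, a difference of -0.97 (adjusted p = 1.24e-05), and its second probe set fell by 1.32. Dusp19 passed 2-fold with median centring (-1.13), without wild type replicate 2 (-1.02) and with its probe sets averaged (-1.14). It also did so with the second set alone, as when sets with the suffix _s_at or _x_at were dropped.

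Dusp22, which acts on Lck, measured 7.83, 7.88 and 7.45 in Hdac3 deleted samples and 6.93, 7.18 and 6.89 in wild type, differing by 0.73 (adjusted p = 0.0028). Dusp14 (MKP6), which acts on the adaptor TAB1, differed by -0.89 (adjusted p = 7.46e-06) and was at least 1.39-fold lower, with Hdac3 deleted samples at 4.71 to 4.78 and wild type at 5.62 to 5.66. Dusp12 differed by -0.31 (adjusted p = 0.00272; 0.085 with cyclic loess), while its second probe set, in the background range in both groups, differed by 0.39. Dusp13, Dusp15, Dusp18 and Dusp26 lay in the background range in both groups.

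**Figure D3:**
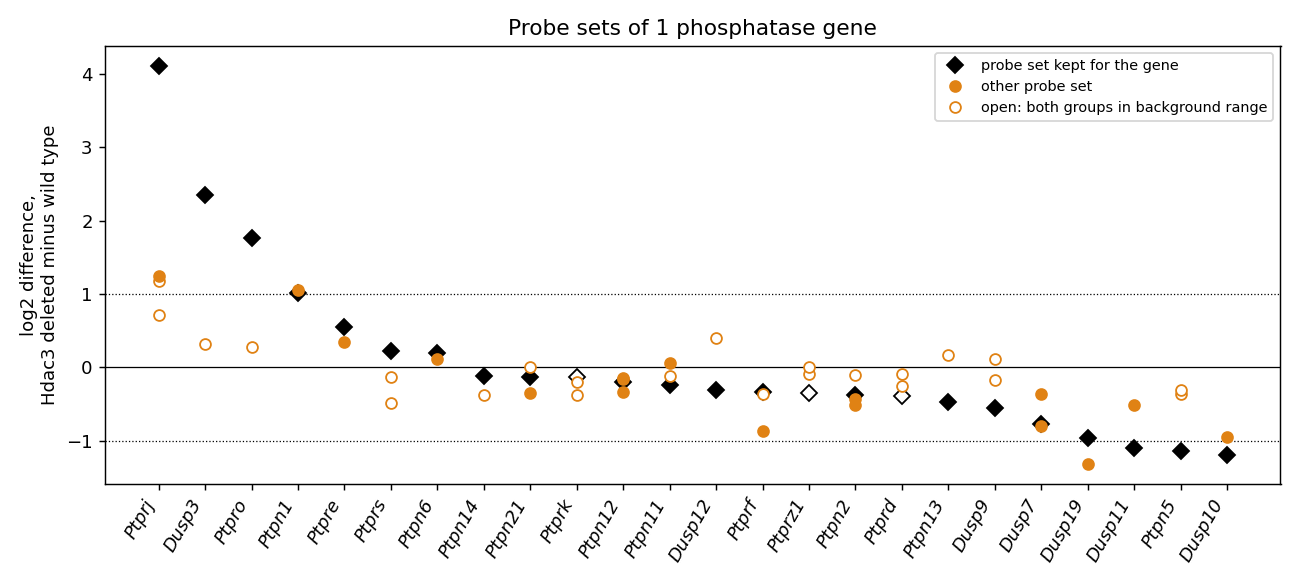
Difference in log2 RMA expression (Hdac3 deleted minus wild type) for every probe set of the 24 phosphatase genes with more than 1; diamonds are the sets used for the gene, circles the others, and open symbols have both groups in the background range. Of 17 other sets above background in a group, 16 have the sign of the set used, and Ptprj, Dusp3 and Ptpro show the widest gaps between sets.

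Of the 51 members 24 had more than 1 probe set, with 40 sets beside those used. Of these, 33 had the sign of the set used, and of the 7 that did not, 2 passed the adjusted p, 1 of Dusp12 and 1 of Ptprs, both in the background range. Over the members, the median SD within a group was 0.088 in Hdac3 deleted and 0.090 in wild type samples, and the highest was 0.332 in Hdac3 deleted and 0.433 in wild type samples.

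RefSeq start sites (GRCm38.p6) were matched for 42 of the 51 members, and the 250 bases before the start are shown for the 3 largest rises, for Dusp1 and for 2 members that fell, since these carry the changes described. Where several starts were listed, the one farthest 5′ was used. Capitals mark matches on either strand to GGGCGG (a GC box, the Sp1 letters), GAGGAA (the core bound by the myeloid factor PU.1) and TGACGTCA (the cAMP response element); TGANTCA (AP-1) was searched too and has no match in these 6 windows. The 4 motifs were chosen after the values were seen, and GAGGAA can also be read by other ETS factors.
Ptprm, chr17:67354460-67354709, minus strand: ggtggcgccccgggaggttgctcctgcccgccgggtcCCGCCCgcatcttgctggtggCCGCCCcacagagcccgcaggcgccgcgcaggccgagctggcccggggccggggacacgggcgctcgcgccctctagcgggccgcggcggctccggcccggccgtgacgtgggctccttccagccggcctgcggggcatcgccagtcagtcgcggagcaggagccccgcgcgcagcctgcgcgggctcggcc
Ptprj, chr2:90580596-90580845, minus strand: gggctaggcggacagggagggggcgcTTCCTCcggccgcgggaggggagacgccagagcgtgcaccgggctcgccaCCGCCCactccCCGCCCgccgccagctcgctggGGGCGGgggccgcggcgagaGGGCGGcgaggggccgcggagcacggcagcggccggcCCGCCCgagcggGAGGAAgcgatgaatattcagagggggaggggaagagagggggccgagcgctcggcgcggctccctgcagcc
Dusp3, chr11:101984792-101985041, minus strand: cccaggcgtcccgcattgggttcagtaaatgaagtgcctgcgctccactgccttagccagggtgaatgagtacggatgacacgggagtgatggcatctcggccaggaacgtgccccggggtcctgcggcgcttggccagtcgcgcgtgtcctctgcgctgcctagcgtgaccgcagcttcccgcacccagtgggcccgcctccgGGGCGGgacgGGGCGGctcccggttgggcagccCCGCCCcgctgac
Dusp1, chr17:26508473-26508722, minus strand: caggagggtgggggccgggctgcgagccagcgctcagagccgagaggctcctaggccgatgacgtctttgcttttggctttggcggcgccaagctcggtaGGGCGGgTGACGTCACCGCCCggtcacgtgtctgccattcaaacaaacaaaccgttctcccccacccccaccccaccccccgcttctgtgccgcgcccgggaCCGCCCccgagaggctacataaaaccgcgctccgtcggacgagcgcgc
Dusp10, chr1:184034131-184034380, plus strand: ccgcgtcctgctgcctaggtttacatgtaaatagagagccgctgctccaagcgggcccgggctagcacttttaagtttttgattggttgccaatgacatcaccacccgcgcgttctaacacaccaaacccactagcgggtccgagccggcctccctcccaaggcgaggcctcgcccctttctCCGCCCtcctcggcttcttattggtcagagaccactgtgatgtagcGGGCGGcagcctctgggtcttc
Ptpn18, chr1:34459496-34459745, plus strand: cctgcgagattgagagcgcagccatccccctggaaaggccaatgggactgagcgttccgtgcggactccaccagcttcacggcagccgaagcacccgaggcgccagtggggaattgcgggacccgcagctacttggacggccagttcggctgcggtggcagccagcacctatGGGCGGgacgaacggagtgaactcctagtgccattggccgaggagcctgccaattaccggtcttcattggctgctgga

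The GC box stood in the 6 windows printed, which were picked, in 4 of the 5 members that rose (not in Ptpro) and in 2 of the 4 that fell (not in Dusp11 or Ptpn5). It stood in 26 of 42 member windows (61.9%), against 33% of 27025 gene windows of the same length, a wider set than the 12393 genes measured. Member windows were richer in G and C, with a median of 67.2% against 52% over those 27025 windows, which bears on that share. GAGGAA stood in 13 of 42 member windows (31%, against 23.1% of all), in Ptprj at 224 and 72 bases before the start and in none of the other 4 members that rose. The cAMP response element stood in the windows of Dusp1, Dusp8, Ptpn11 and Ptpru, 4 of 42 (9.52%, against 1.6% of all), in Dusp1 at 143 bases before the start. Its letters contain CG, and member windows held a median of 20.5 CG pairs against 6 over all windows, which bears on that share too. AP-1 letters stood in 1 of 42 member windows (2.38%, against 6.85% of all). These are letter matches and none shows binding.

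Genes that act with the phosphatases were read from 5 lists. Of 16 measured receptors with an ITIM, the tyrosine motif on which Ptpn6 and Ptpn11 dock, 10 rose (62.5%, against 9.04% of all genes) and 2 fell (12.5%, against 4.46%), with a median of 2.87 beside -0.17 over all genes. Pilra was at least 24.9-fold higher (9.79 and 4.99 in Hdac3 deleted and wild type samples), Cd300a at least 74.6-fold (11.38 and 4.62), and Pirb at least 49.0-fold (10.77 and 4.76). Sirpa, a receptor of myeloid cells that binds CD47, was 121-fold higher (12.58 and 5.67, adjusted p = 1.23e-08). The 2 that fell were Pdcd1 (PD-1, by 2.37) and Cd5 (by 1.30), both receptors of T cells; Pdcd1 is named after its value was seen, and Cd5 is also among the T cell markers. In the same samples macrophage markers rose by a median of 7.04, and Ptpn6 and Ptpn11 differed by 0.19 and -0.24.

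Of 13 measured Src, Syk and Janus kinases and their regulators 2 rose (15.4%, against 9.04% of all genes) and none fell (against 4.46%), although 8 were lower past limma's adjusted p (61.5%, against 38.8%; median -0.41). With median centring 2 fell, and without wild type replicate 1 there was 1. Syk, the antigen and Fc receptor kinase of B and myeloid cells, was 24.6-fold higher (9.99 and 5.37 in Hdac3 deleted and wild type samples), and Fgr, a Src kinase of myeloid cells, 15.8-fold (10.19 and 6.21). Zap70, the T cell relative of Syk, differed by -0.97 (adjusted p = 1.02e-05) and is named after its value was seen.

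In the MAP kinase cascade 2 of 25 genes rose and 2 fell (8% each, against 9.04% and 4.46% of all genes; median -0.13), so the share that rose lay near that of all genes. Mapk11 (p38 beta) fell by 1.72 and Mapk12 (p38 gamma) was at least 3.27-fold lower, whereas Map3k8, the kinase upstream of ERK in Toll-like receptor signalling, rose by 1.60 and Mapk13 was at least 1.45-fold higher. Of 12 other feedback inhibitors of ERK signalling Spred1 rose by 1.64 and Spry1 fell by 1.31 (8.33% each, against 9.04% and 4.46% of all genes), with a median of -0.38; 2 fell with median centring, without Hdac3 deleted replicate 2 and without wild type replicate 1. Among 24 other phosphatases of the superfamily none rose (against 9.04% of all genes) and 1, Eya2, fell (4.17%, against 4.46%). Eya2 was at least 1.43-fold lower (4.11 and 5.67 in Hdac3 deleted and wild type samples). Without the fold threshold 10 of the 24 were higher past limma's adjusted p (41.7%, against 22.4% of all genes) and 7 lower (29.2%, against 38.8%). The list had a median of -0.01, and 1 of it rose with cyclic loess and without wild type replicate 2.

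**Figure D4:**
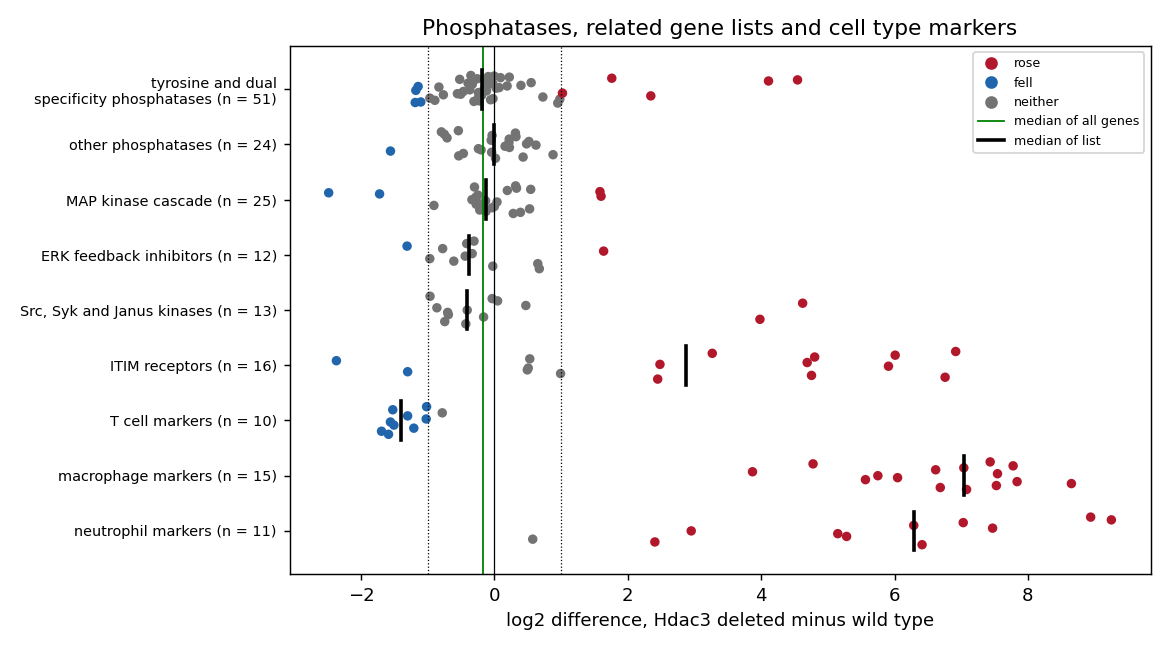
Difference in log2 RMA expression (Hdac3 deleted minus wild type, 3 samples each) of single genes in the phosphatase families, the 5 related lists and 3 marker lists; black bars are list medians and the green line the median of all genes (-0.17). ITIM receptors have a median of 2.87, and T cell and macrophage markers of -1.41 and 7.04.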

How the data were processed

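RNA of 6 CD4+CD25+ T cell samples was hybridised to 1 Affymetrix Mouse430a array each. Per the labels, the authors ran robust multiarray average normalisation (RMA) in MAYDAY 2.12. The deposited value of each probe set is on a log2 scale. The array medians were 6.43 to 6.47 in Hdac3 deleted and 6.28 to 6.29 in wild type samples, so the deposited values do not share one distribution exactly. The number of arrays limits the precision. Of 22690 probe sets, 64 controls were left out, and 20380 of the rest had 1 gene symbol, 691 several and 1555 none. Of those with 1 symbol 20351 matched RefSeq (GRCm38.p6) by Entrez identifier and 0 symbols changed. Each of 12393 genes was read from its brightest probe set by mean level. Groups came from sample titles and were compared two-sided with lmFit and eBayes of limma 3.58.1 (R 4.3.3). Adjustment was by Benjamini and Hochberg over all genes, or over all probe sets where single sets are compared; the authors used Student's test. The call needed adjusted p below 0.05 and 2-fold, as the authors used. The fit was also run on simulated data with independent noise around each gene's level, which checks the code and not the calls made here. Background was the range of 27 Bacillus subtilis control probe sets. All phosphatase members could be named, with up to 4 called genes per related list by smallest p, Hdac3, Foxp3 and T cell and macrophage markers. Hdac11, the markers named of other cell types, Pdcd1 and Zap70 were chosen after their values were seen. The members and lists were chosen with earlier results of these data known. Replicate numbers were not taken to pair the samples. Plots used Python 3.11.15, pandas 2.3.3 and matplotlib 3.10.9.

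The results were recomputed with each sample omitted in turn, with the methods' t-test, with the replicate number as a block, and with array weights or a trended robust prior. The values were rescaled by median centring, cyclic loess or a second quantile normalization. Other alternatives dropped the dimmest 33.3% of genes or the probe sets with the suffix _s_at or _x_at, while sets with the suffix _a_at were kept. Further ones averaged the probe sets of each gene or set the threshold at 1.5-fold.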

Additional observations from a re-analysis of the deposited data

How the results depend on the processing

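With a 1.5-fold threshold 8 members rose and 8 fell, against 5 and 4 at 2-fold. At 1.5-fold the count of all genes that rose was 1687 and that of all genes that fell 1702, against 1120 and 553. With cyclic loess 1 member fell and all genes that fell numbered 352, and with median centring they numbered 867. Cyclic loess put the median difference over all genes at 0.00 and median centring put it at -0.33, beside -0.17; of called genes 79.1% were higher under cyclic loess and 53.2% under median centring, beside 66.9%. Leaving out each sample in turn gave 5 to 6 members that rose and 4 to 5 that fell. Without wild type replicate 2 Ptpn1 was lost (0.98) while Dusp19 (-1.02) and Dusp16 (1.02) were added, and Dusp16 was added without Hdac3 deleted replicate 3 (1.06). Where either setting was past the adjusted p, signs turned for Ptprc (0.14 with quantile normalization again, 0.21 with cyclic loess), and for Dusp12 (0.042) and Ptprs (-0.13) where all probe sets of a gene were averaged; further members past it in neither setting also turned, Dusp15 and Dusp18 among them. Ptprm, Ptprj, Dusp3 and Dusp10 kept their calls under all 16 settings run at 2-fold, and Ptpro under the 15 that held it. The causes of these changes were not tested. With the replicate number as a block 5 members rose and 4 fell, and 11 were higher and 22 lower past adjusted p. Same-numbered samples deviated with correlations of 0.0885, 0.0646 and -0.201, so the numbers were not taken to pair them. Direction is not readable for the 15 members in the background range in both groups.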
